A study of Mus musculus with 20 samples.

Results

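The genes described here encode 9 surface receptors that mark beta-selection and the passage to the double-positive (DP) stage of the thymus: Cd2, Cd4, Cd5, Cd6, Cd8a, Cd8b1, Cd27, Cd28 and Cd69. They were taken by symbol from a table of 23284 genes, and all 9 were present. The libraries were RNA sequencing of sorted mouse DN3 thymocytes, a stage of double-negative cells that need Notch1 signals and a rearranged T cell receptor beta chain to go on. All mice were C57BL/6 per the labels, whose gate for the sort reads CD44+ and CD25-, the reverse of the textbook DN3 gate. Il2ra, which encodes CD25, was high in these libraries (543 to 5885 CPM, counts scaled to library size).

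There were 6 groups. DeltaMxCre mice (n = 3) carried MxCre, a Cre driven by an interferon-responsive promoter and so active in many blood cell types, with floxed Zmiz1. MxCre mice (n = 3) carried MxCre without the floxed allele. Both received 5 injections of 40 mcg pI-pC at intervals of 2 days, and cells were sorted 8 weeks later. AntiNRR mice received an antibody to the negative regulatory region of Notch1 at 10 mg/kg, and IgG mice a control antibody, for 24 h (3 libraries each). How many mice gave these libraries is not stated in the labels, and p-values for the antibody groups then measure only a spread between samples that may be technical. DeltaTamCre mice (n = 4) carried floxed Zmiz1 with Rosa26CreERT2, a ubiquitously expressed Cre that tamoxifen activates. TamCre mice (n = 4) carried Rosa26CreERT2 alone. Both received tamoxifen at 0.2 mg/g, and cells were sorted 43 to 44 h later. The first 4 groups were prepared with the SMARTer kit from 50 ng of RNA and the tamoxifen groups with the TruSeq kit from 100 ng. Effects of the kit and of the mouse model therefore cannot be told apart, and CPM were scaled within each kit.

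At the DN3 stage a cell that has rearranged its T cell receptor beta chain assembles the pre-T cell receptor, and its signal drives division, survival and the later display of CD4 and CD8. CD27 and CD28 increase on the surface as cells pass this checkpoint, and surface CD5 follows the strength of receptor signalling. Full levels of CD4 and CD8 belong to DP cells, so a few DP cells left in a DN3 sort would add Cd4, Cd8a and Cd8b1 RNA to a library. In RNA from a mixture, a different number of such cells and a different amount of RNA per cell cannot be told apart.

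Zmiz1, the deleted gene, had 121, 132 and 116 CPM in the DeltaMxCre libraries, against 298, 360 and 334 CPM in the MxCre libraries. In the tamoxifen groups it had 184, 220, 169 and 173 CPM in DeltaTamCre and 324, 293, 272 and 282 CPM in TamCre. The fall was 1.42 on the log2 scale for DeltaMxCre (adjusted p = 1.15e-08) and 0.65 for DeltaTamCre (adjusted p = 0.0405), both by edgeR's quasi-likelihood test. Il2ra fell by 2.43 with AntiNRR (adjusted p = 0.000211). Totals per library were 11695668 to 19133150 expected counts in SMARTer libraries and 52615326 to 101425241 in TruSeq libraries. MxCre replicate 3 stood apart from its group: 10 S phase genes (a list added after the values were seen) summed to 5152 CPM there and to 3218 and 3101 CPM in MxCre 1 and 2, and Ccr9 had 39.7 CPM against 175 and 154 CPM. The member values of DeltaMxCre over MxCre are therefore also given without that library.

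RefSeq promoters of the GRCm38.p6 build were given for 3 of the 9 members. The 250 bases before a RefSeq start of Cd5 (minus strand, chr19:10738975-10739224) are shown because Cd5 was higher in both Zmiz1 deletions, without passing in edgeR. That window reaches into the gene coordinates given below for Cd5, which end at 10739026. Those before the start of Cd8a (plus strand, chr6:71373177-71373426) are shown because the co-receptor genes varied together between tamoxifen libraries. Capitals mark TGGGAA, the core bound by the Notch cofactor RBPJ, and CANNTG, the E-box bound by E proteins, read on both strands.
Cd5: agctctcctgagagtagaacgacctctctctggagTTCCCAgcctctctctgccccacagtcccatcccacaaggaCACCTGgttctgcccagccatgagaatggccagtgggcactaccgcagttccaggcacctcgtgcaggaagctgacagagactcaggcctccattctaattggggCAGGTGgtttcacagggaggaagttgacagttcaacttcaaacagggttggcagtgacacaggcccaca
Cd8a: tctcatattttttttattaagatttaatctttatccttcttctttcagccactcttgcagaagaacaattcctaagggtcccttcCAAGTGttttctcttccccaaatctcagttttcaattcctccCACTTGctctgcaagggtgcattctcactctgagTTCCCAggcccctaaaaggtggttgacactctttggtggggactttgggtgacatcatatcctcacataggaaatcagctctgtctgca
Each window held 1 TGGGAA on its minus strand and 2 CANNTG. Of 32851 promoter windows of this length, 21.6% held TGGGAA and 66.2% held CANNTG. The RUNX core TGTGGT was in neither window and in 14% of all windows. These are letters in a window and say nothing of binding.

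Levels differed widely among the members. Per length, in the authors' deposited table of group means, Cd27 was the highest in TamCre cells at 124 FPKM, followed by Cd6 at 31.5, Cd28 at 15.9 and Cd5 at 10.5 FPKM. Cd2 and Cd8b1 both had 9.02 FPKM, Cd69 had 7.84 FPKM, and Cd8a and Cd4 were lowest at 2.64 and 2.32 FPKM. In MxCre cells Cd27 (138 FPKM) was again the highest, followed by Cd28 (19.3 FPKM), and Cd4 (2.47 FPKM) and Cd8a (2.35 FPKM) were again lowest, in the authors' deposited table. These group means carry no spread between libraries.

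**Figure D1:**
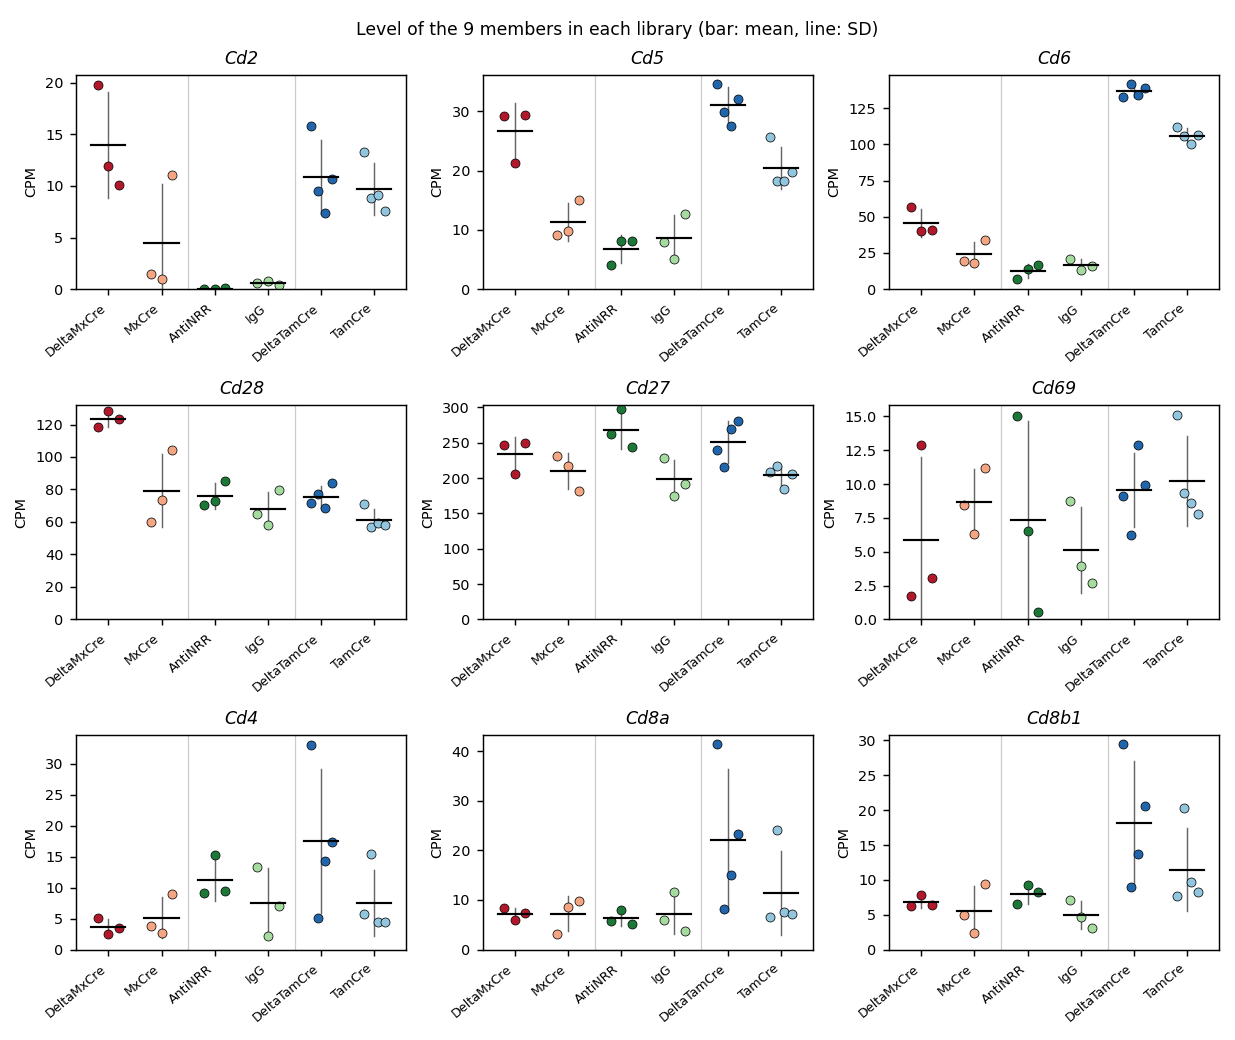
CPM of each of the 9 members (linear vertical axes from 0) in every library of the 6 groups, with the group mean as a bar and the SD as a line. DeltaMxCre libraries lie above all MxCre libraries for Cd5, Cd6 and Cd28, MxCre replicate 3 alone of its group reaches 11.1 CPM of Cd2, and Cd8a and Cd8b1 have their largest SD in DeltaTamCre and their next largest in TamCre.

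Among the receptors that tune or costimulate the antigen receptor, Cd28 rose 8 weeks after Zmiz1 deletion, and Cd5 and Cd6 were higher in every deleted library without passing the test. Of the 9 members, 1 was called in DeltaMxCre over MxCre, against 2.94% of the 13557 genes tested (399 genes; adjusted p, or FDR, under 0.05 over all genes). Cd28 encodes the costimulatory receptor for CD80 and CD86 and lies on chromosome 1 (60746388 to 60773359). It had 118, 128 and 124 CPM in DeltaMxCre and 60.0, 73.7 and 104 CPM in MxCre. Every deleted library was above every control library, as for 10.2% of all genes tested. The log2 fold change was 0.64 ± 0.17 (SE; adjusted p = 0.0336 by edgeR's quasi-likelihood test, 0.00132 to 0.822 over 13 alternatives, of which 5 kept the call). Leaving out MxCre 1, MxCre 2 or any DeltaMxCre library ended the call (log2 fold change 0.48 to 0.67, adjusted p = 0.0556 to 0.165 in edgeR). DESeq2 called Cd28 and Cd5, 2 of the 9 members, against 5.1% of all genes.

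Cd5 (chromosome 19, 10718107 to 10739026) encodes a scavenger receptor cysteine-rich protein that restrains antigen receptor signalling. It had 29.3, 21.3 and 29.5 CPM in DeltaMxCre and 9.14, 9.74 and 15.01 CPM in MxCre, with no overlap. Its log2 fold change of 1.24 ± 0.35 missed the threshold (edgeR adjusted p = 0.0536), whereas DESeq2 gave an adjusted p of 0.0251.

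Cd6 (chromosome 19, 10789339 to 10830062), the neighbouring gene of the same family, encodes the receptor for ALCAM. It had 57.0, 40.0 and 40.6 CPM in DeltaMxCre and 19.8, 18.2 and 34.0 CPM in MxCre, again without overlap. Its log2 fold change was 0.93 ± 0.29 (edgeR adjusted p = 0.0818).

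Cd2 (chromosome 3, 101275908 to 101287939) encodes an adhesion receptor that binds CD48 in the mouse. It had 19.8, 11.97 and 10.1 CPM in DeltaMxCre and 1.49, 0.999 and 11.1 CPM in MxCre. A single library, MxCre 3, made the groups overlap, and the log2 fold change of 1.62 ± 0.69 did not pass (edgeR adjusted p = 0.226).

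The authors' deposited table gives fold changes of 2.79 for Cd2 (q-value 0.0188), 2.25 for Cd5 (0.00453), 1.74 for Cd6 (0.00766) and 1.63 for Cd28 (0.00251) in this comparison, with all libraries.

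Without MxCre replicate 3, the 4 receptors Cd2, Cd5, Cd6 and Cd28 rose. The log2 fold changes were then 3.48 for Cd2 (edgeR adjusted p = 0.00641), 1.51 for Cd5 (0.0318), 1.28 for Cd6 (0.0169) and 0.90 for Cd28 (0.00132). That made 4 of 9 members called, against 3.06% of the genes tested without that library. Of the other members without that library, Cd27 had a log2 fold change of 0.07, Cd69 of -0.31, Cd4 of 0.18, Cd8a of 0.29 and Cd8b1 of 0.90, none past the threshold. Leaving out each library was planned, but this one was singled out after its values were seen.

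Other cell markers moved in the same comparison. The summed mature markers lay between 693 and 948 CPM in DeltaMxCre and between 417 and 636 CPM in MxCre, without overlap, with 1 of 5 tested genes called higher. A single gene supplied 95.5% to 99.6% of the summed mature marker level in every library. With the mature marker sum as a covariate no member was called, against 53 of 13557 genes (399 without a covariate). The log2 fold changes in edgeR were then 0.22 for Cd28 (adjusted p = 0.822), 0.80 for Cd5 (0.661), 0.62 for Cd6 (0.666) and 0.40 for Cd2 (0.924). With the double-positive sum as a covariate no member was called either, against 20 of 13557 genes. The log2 fold changes in edgeR were then 0.90 for Cd28 (adjusted p = 0.422), 1.54 for Cd5 (0.606), 1.93 for Cd6 (0.0954) and 5.01 for Cd2 (0.135). The double-positive sum lay between 2017 and 2623 CPM in DeltaMxCre and between 1477 and 1817 CPM in MxCre. Both sums were higher in DeltaMxCre without overlap, so each covariate shares its difference with the deletion. Calls fell over all genes, and their loss cannot be read as a result about the members. Of the double-positive list 2 of 7 tested genes rose, Arpp21 by 0.55 (adjusted p = 0.0263) and Themis by 0.55 (adjusted p = 0.00553, both by edgeR). These 2 made up 65.8% to 87% of that list's sum and were at 145 CPM or more in every library. The summed NK list lay between 19.2 and 20.9 CPM in DeltaMxCre and between 7.62 and 15.2 CPM in MxCre, almost all of it Nkg7, with Klrd1 and Ncr1 at 0. The part of these markers in the member values was not tested.

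At 43 to 44 h after tamoxifen the averages of Cd5, Cd6 and Cd28 were higher by smaller amounts, and edgeR called none of the 9 members (4 had an unadjusted p under 0.05, and DESeq2 called 2, Cd5 and Cd6). Over all 13460 genes tested, edgeR called 12, or 0.0892%, and DESeq2 545, or 4.05%. An unadjusted p under 0.05 was reached by 2153 of these genes in edgeR. Cd5 had 34.7, 30.0, 27.6 and 32.01 CPM in DeltaTamCre and 25.7, 18.2, 18.2 and 19.8 CPM in TamCre. Every deleted library was above every control library, as for 4.84% of all genes. The log2 fold change was 0.60 ± 0.12 (edgeR adjusted p = 0.0992, DESeq2 adjusted p = 0.00173).

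Marker sums moved in this comparison too. The mature sum was 645, 841, 921 and 817 CPM in DeltaTamCre and 610 to 660 CPM in TamCre. The NK sum was 71.2 to 101 CPM in DeltaTamCre and 64.3 to 74.9 CPM in TamCre, and the early progenitor sum 76.1 to 98.4 CPM in DeltaTamCre and 66.5 to 79.1 CPM in TamCre. These ranges overlapped, and the part of these markers in the member values was not tested.

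Cd6 was even tighter within groups. It had 133, 142, 134 and 139 CPM in DeltaTamCre and 112, 106, 100 and 107 CPM in TamCre, without overlap. The log2 fold change was 0.37 ± 0.06 (edgeR adjusted p = 0.075, DESeq2 adjusted p = 6.49e-05). Cd28 had 71.4, 77.0, 68.5 and 83.9 CPM in DeltaTamCre and 71.1, 57.2, 59.4 and 58.1 CPM in TamCre. TamCre 1 reached into the deleted range, and the log2 fold change of 0.29 ± 0.09 did not pass (edgeR adjusted p = 0.172). Cd2 averaged 10.9 ± 3.59 CPM in DeltaTamCre and 9.70 ± 2.48 CPM in TamCre (SD, n = 4 each), a log2 fold change of 0.16 ± 0.24. The authors' deposited table gives fold changes of 1.38 for Cd5 (q-value 0.00582), 1.27 for Cd6 (0.0312) and 1.46 for Cd28 (0.00246) here.

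Under Notch1 blockade Cd2 was close to undetected. Its rounded counts were 0, 0 and 1 in AntiNRR and 12, 12 and 6 in IgG. The ratio scaled to library size was 0.0389, with a 95% interval from counting alone of 0.000954 to 0.234. Every AntiNRR library was below every IgG library, as for 11.3% of genes. Cd2 passed the low-count filter through the MxCre-model libraries in which it is high; with only the antibody libraries it was below the filter and was not tested. The edgeR adjusted p of 0.0449 in the 12-library fit (0.0145 to 0.218 over 12 alternatives; 1 member called against 4.06% of all genes) is therefore given as a description beside the counts. DESeq2 called Cd2 and Cd27, 2 members against 6.09% of genes. The call was lost whichever of the 6 libraries was left out, and the fitted log2 fold change of -4.27 depends on the prior count. The authors' deposited table gives Cd2 a fold change of 0.664 with a q-value of 1 here, from means of 1.03 FPKM in AntiNRR and 1.55 FPKM in IgG, close to that table's lowest value of 1 FPKM.

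Cd5, Cd6 and Cd28 did not pass with the antibody. Cd5 had 4.10, 8.20 and 8.19 CPM in AntiNRR and 7.94, 5.11 and 12.8 CPM in IgG, and Cd6 had 7.34, 14.1 and 16.8 CPM in AntiNRR and 20.99, 13.4 and 16.4 CPM in IgG. Both pairs of groups overlapped, with log2 fold changes of -0.34 ± 0.36 and -0.41 ± 0.30. Cd28 had 70.3, 72.7 and 85.4 CPM in AntiNRR and 65.0, 58.3 and 79.8 CPM in IgG, again with overlap (log2 fold change 0.17 ± 0.17).

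**Figure D2:**
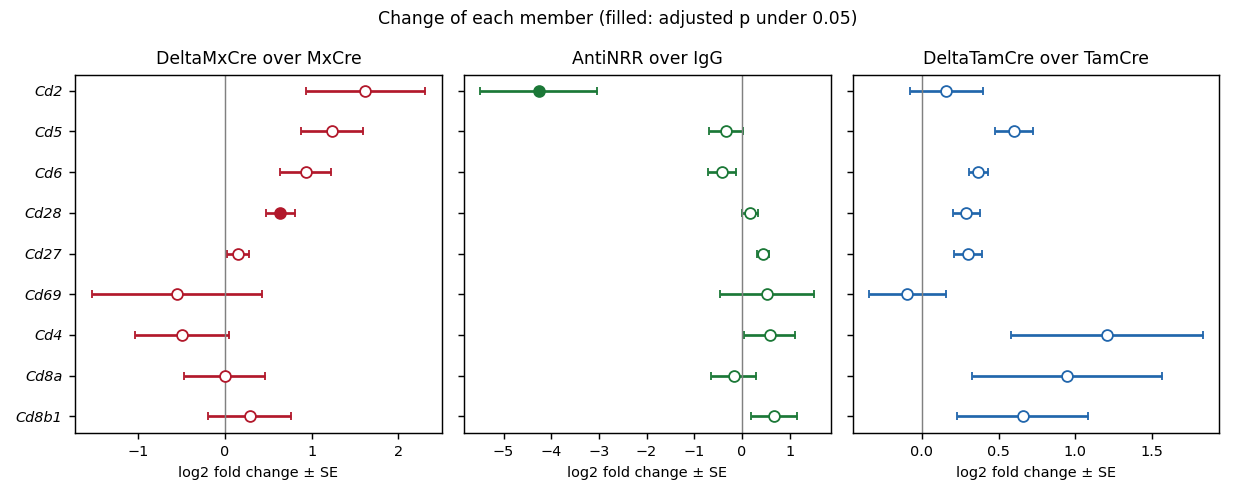
Log2 fold change of each member with its SE (horizontal axis) in DeltaMxCre over MxCre, AntiNRR over IgG and DeltaTamCre over TamCre; filled points passed an adjusted p of 0.05. Cd28 is filled in the first panel and Cd2, which rests on 1 count against 30, in the second, and Cd5 and Cd6 lie right of 0 in both Zmiz1 deletions and left of it with AntiNRR.

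The differences between effects were tested directly. For Cd2 the DeltaMxCre effect minus the AntiNRR effect was fitted at 5.89 ± 1.40 on the log2 scale (edgeR adjusted p = 0.0294, 0.000255 to 0.126 over 16 alternatives), the only member called there, against 1.23% of all genes (DESeq2 called Cd2 too, against 2.54%). This value rests on the antibody arm with 1 count against 30, where Cd2 could not be tested alone, so its size is no measure of a fold. That call was lost when any 1 AntiNRR or IgG library or DeltaMxCre 1 was left out (edgeR adjusted p = 0.0579 to 0.126). Cd5 differed by 1.58 ± 0.50 (adjusted p = 0.137) and Cd6 by 1.35 ± 0.42 (adjusted p = 0.12), neither of which passed in edgeR. Between the 2 Zmiz1 deletions no member differed at an adjusted or an unadjusted p under 0.05 in edgeR, nor at an adjusted one in DESeq2, against 0.166% of genes called by edgeR and 0.569% by DESeq2. An unadjusted p under 0.05 was reached by 943 of all 13895 genes there in edgeR. Without MxCre 3 the Cd2 difference between the deletions was 3.34, against 1.498 with all libraries, and was called (edgeR adjusted p = 0.00316). It was the 1 member called then, against 52 of 14271 genes. Between the AntiNRR and DeltaTamCre effects edgeR called no member (3 at an unadjusted p under 0.05, against 1633 of all 13895 genes) and DESeq2 called Cd2, against 0.698% of genes called by edgeR and 2.08% by DESeq2.

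The S phase genes are set beside Cd2 as a description. In the SMARTer libraries it was at or under 1.49 CPM in MxCre 1 and 2, AntiNRR and IgG, where the S phase sum was 1572 to 3218 CPM. MxCre 3 had 11.1 CPM of Cd2 with a sum of 5152 CPM. DeltaMxCre had 10.1 to 19.8 CPM of Cd2 with sums of 3602, 2782 and 2862 CPM, a range that overlaps the MxCre 1 and 2 sums. The part of cell division in Cd2 was not tested.

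**Figure D3:**
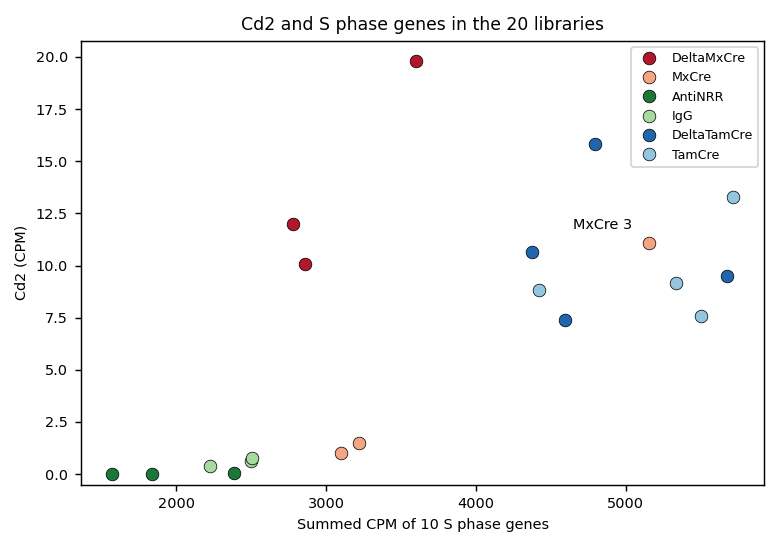
Cd2 in CPM (vertical axis) against the summed CPM of 10 S phase genes (horizontal axis) in the 20 libraries, coloured by group; CPM were scaled within each kit. MxCre replicate 3 lies apart from MxCre 1 and 2 on both axes, and the 3 DeltaMxCre libraries have 10.1 to 19.8 CPM of Cd2 at S phase sums of 2782 to 3602 CPM.

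Cd27, a TNF receptor family member that binds CD70 and supports survival after beta-selection, was the most abundant member. It had 263, 298 and 244 CPM in AntiNRR and 228, 175 and 192 CPM in IgG. All blocked libraries were above all control libraries, as for 10.3% of genes. The log2 fold change of 0.43 ± 0.13 lay just outside the threshold in edgeR (adjusted p = 0.0515) and inside it in DESeq2 (adjusted p = 0.0281). In edgeR it passed without AntiNRR 3 (adjusted p = 0.0486) or without IgG 1 (0.0292). Over all 13 alternatives, in edgeR or DESeq2, the adjusted p was 0.0245 to 0.261, and 7 called Cd27. Summed gamma-delta markers lay between 115 and 131 CPM in AntiNRR and between 67.3 and 83.7 CPM in IgG (3 of 7 listed genes were in the table). The double-positive sum (3049 to 3329 CPM in AntiNRR and 2499 to 2983 CPM in IgG) and the early progenitor sum (202.5 to 244 CPM in AntiNRR and 142 to 163 CPM in IgG) were also higher without overlap. The DN3 sum was lower, at 7779 to 8570 CPM in AntiNRR and 14050 to 14260 CPM in IgG. The part of these markers in Cd27 was not tested. The authors' deposited table gives Cd27 a fold change of 1.46 with a q-value of 0.00704 here. In DeltaTamCre Cd27 averaged 251 ± 29.2 CPM and in TamCre 204 ± 13.4 CPM (SD, n = 4 each), a log2 fold change of 0.30 ± 0.09 (edgeR adjusted p = 0.17). DeltaMxCre and MxCre had 234 ± 24.4 and 210 ± 25.5 CPM (SD, n = 3 each; log2 fold change 0.16 ± 0.13).

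Cd69, an early activation receptor that removes the egress receptor S1PR1 from the surface, overlapped between the groups of every comparison. It had 1.71, 12.9 and 3.03 CPM in DeltaMxCre and 8.48, 6.31 and 11.2 CPM in MxCre. With AntiNRR it had 15.1, 6.51 and 0.531 CPM, and with IgG 8.77, 3.91 and 2.72 CPM. In the tamoxifen groups it averaged 9.56 ± 2.75 CPM in DeltaTamCre and 10.2 ± 3.33 CPM in TamCre (SD, n = 4 each). Log2 fold changes were -0.55 ± 0.98, 0.52 ± 0.98 and -0.09 ± 0.25 in the 3 comparisons, none past the threshold.

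The co-receptor genes, whose products bind MHC class II (Cd4) and class I (Cd8a and Cd8b1) and bring the kinase LCK to the receptor, did not pass in any comparison in edgeR or DESeq2. In the tamoxifen groups they varied together from library to library. Cd8a (chromosome 6, 71373427 to 71379171) had 41.3, 8.23, 15.1 and 23.4 CPM in DeltaTamCre and 6.47, 24.2, 7.64 and 7.25 CPM in TamCre. Cd8b1 (chromosome 6, 71322788 to 71337492) had 29.4, 8.93, 13.8 and 20.6 CPM in DeltaTamCre and 7.75, 20.3, 9.63 and 8.22 CPM in TamCre. Cd4 (chromosome 6, 124864693 to 124888247) had 33.1, 5.13, 14.3 and 17.4 CPM in DeltaTamCre and 5.82, 15.5, 4.42 and 4.51 CPM in TamCre.

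DeltaTamCre 1, 3 and 4 and the control TamCre 2 were high for each of these genes, and DeltaTamCre 2 and the other TamCre libraries were low. The log2 fold changes of 0.95 ± 0.62 for Cd8a, 0.66 ± 0.43 for Cd8b1 and 1.21 ± 0.63 for Cd4 had edgeR adjusted p of 0.5, 0.489 and 0.394. Without TamCre 2 they were 1.62, 1.08 and 1.82, still not past the threshold (adjusted p = 0.172, 0.174 and 0.169). The authors' deposited table gives Cd8a a fold change of 2.03, Cd8b1 of 1.51 and Cd4 of 2.09 in the same comparison, each with a q-value of 0.00246.

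Cd1d1, a DP marker that encodes the molecule presenting lipids to NKT cells, was singled out after its values were seen. It had 39.1, 25.5, 38.6 and 42.9 CPM in DeltaTamCre and 23.0, 38.1, 28.7 and 29.0 CPM in TamCre. Over the 8 tamoxifen libraries, deviations of its log2 CPM from the group means correlated with those of Cd4, Cd8a and Cd8b1 at 0.797, 0.837 and 0.846 (Pearson's r, a description), and with those of Cd5, Cd6, Cd28 and Cd27 at -0.367, -0.483, -0.421 and 0.678. Other markers of the double-positive list went both ways with Cd4, Cd8a and Cd8b1 there. Of those named here, Themis was at -0.788, -0.777 and -0.75, Ccr9 at 0.438, 0.416 and 0.419, and Arpp21 at 0.255, 0.208 and 0.209. In the 12 SMARTer libraries the values of Cd1d1 were 0.467, -0.583 and -0.115 for Cd4, Cd8a and Cd8b1, and 0.43, -0.059, 0.225 and 0.344 for Cd5, Cd6, Cd28 and Cd27. In the 8 tamoxifen libraries Cd8a and Cd8b1 themselves correlated at 0.996 (Spearman's rho 0.976), with a permutation p of 0.00168 that came to 0.0605 after adjustment over 36 pairs, and at 0.988 without the 2 libraries farthest from the median.

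**Figure D4:**
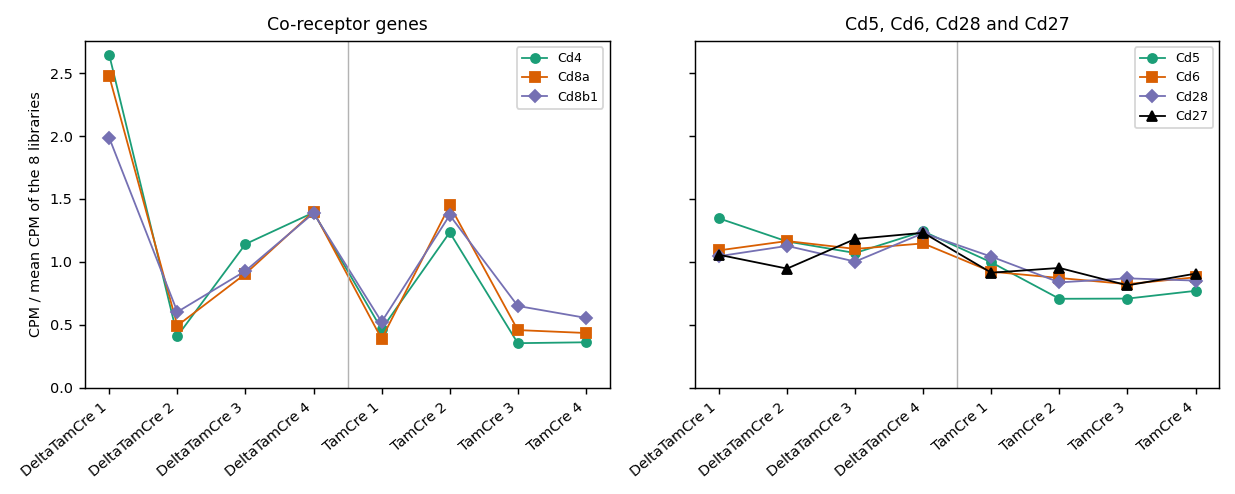
CPM of each gene divided by its mean over the 8 tamoxifen libraries (vertical axis, from 0), with DeltaTamCre left of TamCre; lines join values of 1 gene and imply no order. Left, Cd4, Cd8a and Cd8b1 are high in DeltaTamCre 1, 3 and 4 and in TamCre 2; right, Cd5 and Cd6 are higher in all DeltaTamCre than in all TamCre libraries and are not raised in TamCre 2.

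In the 12 SMARTer libraries, where counts of these genes were 35 to 256 per library, Cd8a and Cd8b1 correlated at 0.172 and Cd4 with Cd8a at -0.121, and Cd4 with Cd8b1 at 0.573 (permutation p after adjustment 0.892, 0.892 and 0.579). Cd8a per Cd8b1 counts ranged from 0.630 to 3.56 there and from 0.794 to 1.40 in the TruSeq libraries. Cd8a averaged 7.22 ± 1.17 CPM in DeltaMxCre and 7.22 ± 3.56 CPM in MxCre (SD, n = 3 each). With the antibody it averaged 6.33 ± 1.51 CPM in AntiNRR and 7.11 ± 4.00 CPM in IgG (SD, n = 3 each). Cd8b1 averaged 6.85 ± 0.844 CPM in DeltaMxCre and 5.61 ± 3.54 CPM in MxCre (SD, n = 3 each). With the antibody it averaged 7.96 ± 1.37 CPM in AntiNRR and 4.99 ± 2.02 CPM in IgG (SD, n = 3 each). Cd4 averaged 3.68 ± 1.25 CPM in DeltaMxCre and 5.14 ± 3.33 CPM in MxCre (SD, n = 3 each). With the antibody it averaged 11.3 ± 3.46 CPM in AntiNRR and 7.54 ± 5.60 CPM in IgG (SD, n = 3 each). The groups overlapped in every one of these comparisons.

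Whether members moved with later-thymocyte markers was asked over all 20 libraries, as correlations of deviations from group means with the summed double-positive and mature marker lists, which hold no member. None of 18 relations passed after adjustment (permutation test within groups, 100000 resamples, 2-sided; 2 had an unadjusted p under 0.05). The strongest was negative, Cd2 with the double-positive sum (Pearson's r -0.725, adjusted p = 0.0551; Spearman's rho -0.745, adjusted p = 0.0751; r -0.635 without the 2 libraries farthest from the median). Within kits it was -0.761 in the 12 SMARTer and -0.606 in the 8 TruSeq libraries. The relation was gone with the markers weighted equally, an index chosen after seeing the data: r for Cd2 was then -0.03 over all 20 libraries, -0.099 in SMARTer and 0.134 in TruSeq libraries. With that index, r in the TruSeq libraries was 0.821 for Cd4, 0.809 for Cd8a and 0.827 for Cd8b1 (permutation p of 0.14 each after adjustment), 0.797 for Cd27 (0.189), -0.029 for Cd5, -0.17 for Cd6 and 0.016 for Cd28. For Cd4, Cd8a and Cd8b1 it was 0.197, -0.283 and 0.087 in the SMARTer libraries and 0.523, 0.351 and 0.478 over all 20, none past the threshold after adjustment. With the planned double-positive sum, r for Cd4, Cd8a and Cd8b1 in the TruSeq libraries was only 0.188, 0.151 and 0.163. With the planned mature sum it was -0.643, -0.701 and -0.698, and none of these passed after adjustment. With the mature markers weighted equally, r over all 20 was 0.622 for Cd2, 0.426 for Cd5, 0.434 for Cd6 and 0.597 for Cd28. None passed (permutation p of 0.136, 0.136, 0.136 and 0.139 after adjustment). That r was 0.418 for Cd4, 0.236 for Cd8a, 0.351 for Cd8b1, 0.095 for Cd27 and 0.215 for Cd69. Several mature markers had no counts in SMARTer libraries.

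Of 36 pairs of members over the 20 libraries none passed after adjustment. Cd4 with Cd8b1 (r 0.768, permutation p of 0.085 after adjustment) and Cd5 with Cd28 (r 0.699) were the closest. Among 12810 other genes, those most like each member in these deviations were Ran and Tfdp1 for Cd2 (r 0.925 and 0.921), Srebf1 and Vac14 for Cd5 (0.895 and 0.862), Pigq and Chaf1b for Cd6 (0.895 and 0.894), and Faf1 and Rab1b for Cd28 (0.846 and 0.843). They were Sharpin and Ctsa for Cd27 (0.88 and 0.878), 4933430I17Rik and Lyrm1 for Cd69 (0.903 and 0.896), Gm16287 and Arhgef1 for Cd4 (0.814 and 0.801), Atxn2l and Trpv6 for Cd8a (0.816 and 0.794), and Arid3b and Rpl35 for Cd8b1 (0.814 each).

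Genes around the members changed in part. Of 20 other surface receptors of T cells, 3 rose and 2 fell in DeltaMxCre, with Cd53, a tetraspanin, at 1.26 ± 0.21 (edgeR adjusted p = 0.00189) and Cd44, the hyaluronan receptor, at -3.07 ± 0.71 (adjusted p = 0.0151). With AntiNRR 5 rose, among them Cd53 (1.08 ± 0.21) and Cd96 (0.77 ± 0.12), and 3 fell, Cd82 (-0.76), Cd3g (-0.75) and Cd3d (-0.71). Cd53 was also the only gene of the 6 lists around the members that edgeR called in DeltaTamCre, at 0.65 ± 0.10 (adjusted p = 0.0405), out of 88 tested (24 had an unadjusted p under 0.05, against 2153 of all 13460 genes, and DESeq2 called 12).

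Among 19 tested regulators of Cd4 and Cd8, Lef1 fell in both SMARTer comparisons (-0.87 in DeltaMxCre and -0.88 in AntiNRR). Tcf7 fell in DeltaMxCre (-0.50), and Gata3 (0.79), Satb1 (0.55) and Ikzf1 (0.43) rose with AntiNRR. Of 21 signalling partners, the adaptor Lcp2 rose in DeltaMxCre (0.40, adjusted p = 0.0491 in edgeR). With AntiNRR Pik3r1 (0.39), a regulatory subunit of PI3 kinase, rose and the ubiquitin ligase Cblb fell (-0.78). Among ligands, Cd200 fell in DeltaMxCre (-2.18) and Cd48, the ligand of CD2, was 0.57 ± 0.18 with AntiNRR without passing (adjusted p = 0.0846 in edgeR). Of 15 beta-selection response genes Nfkbia rose with AntiNRR (1.13), and in DeltaMxCre the smallest p belonged to Slc3a2 (-0.55, adjusted p = 0.0797 in edgeR). Markers of other stages and cell types were called in few cases. Of 9 DN3 genes Rag1 fell in DeltaMxCre (-0.78) and 6 fell with AntiNRR. Of the early progenitor list Cd44 and Bcl11a (-2.03) fell in DeltaMxCre and Kit rose with AntiNRR (0.84). EdgeR called no gene of the gamma-delta, NK, B cell, myeloid, dendritic, erythroid and platelet or thymic epithelial lists. An unadjusted p under 0.05 was reached by 1 gene each of the gamma-delta, NK and thymic epithelial lists in DeltaMxCre, 1 gamma-delta gene in AntiNRR, and 1 NK and 1 myeloid gene in DeltaTamCre. Over all genes tested it was reached by 2239 in DeltaMxCre, 2215 in AntiNRR and 2153 in DeltaTamCre. DESeq2 called Blk and Psmb11 in DeltaMxCre, Sox13 in AntiNRR and Itgam in DeltaTamCre.

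The median log2 fold change of the 9 members was 0.29 in DeltaMxCre, 0.17 in AntiNRR and 0.37 in DeltaTamCre, against -0.03, -0.02 and 0.02 over all genes tested.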

How the data were processed

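The authors' count table holds expected counts per gene and library. The submitters' processing notes name Cuffdiff 2.1.1, Cufflinks, Bowtie2 2.1.0.0, TopHat2 2.0.9 and FastQC 0.10.0, and the mm10 build. No label states the annotation or strand setting, so values of overlapping genes are uncertain. The authors' deposited table of comparisons holds group-mean FPKM, none under 1, with a fold change as a ratio, a p-value and a q-value, per the file headers.

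Expected counts, rounded to whole numbers, entered the quasi-likelihood test of edgeR 4.0.16 in R 4.3.3 (TMM scaling, filterByExpr, robust fit; adjusted over all genes by Benjamini-Hochberg), in 1 fit of 12 SMARTer and 1 of 8 TruSeq libraries. Differences that involve DeltaTamCre used 1 fit of all 20. DESeq2 1.42.0, other scalings and filters, marker covariates and left-out libraries were alternatives. Log2 CPM used a prior count of 2. The fits were tested on simulated data. All 9 members passed the low-count filter of each fit, Cd2 in the SMARTer fit through the MxCre-model libraries. The named genes were all 9 members, up to 4 called genes per list with the largest change (or that with the smallest p), Zmiz1, Il2ra and the 2 genes most like each member. The members and lists were chosen with earlier results of these data known; the S phase list, Cd1d1, Ccr9 and Nkg7 were singled out after their values were seen. Intervals cover counting error only. Some genes of the lists are not reported here, though they remain in counts and sums.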

Additional observations from a re-analysis of the deposited data

Results flagged for a closer look

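In TamCre, 1 of 4 libraries lay far from the others for 4 members. The gap to the nearest library, as a share of the group's range, was 0.874 for Cd4, 0.934 for Cd8a and 0.851 for Cd8b1, each with TamCre 2 on top, and 0.843 for Cd28, with TamCre 1 on top. The critical value for 4 samples flags about 1 in 20 groups by chance, and Cd4, Cd8a and Cd8b1 are not independent of each other. The SMARTer groups, with 3 libraries each, were not screened by this rule. The effect on Cd2 differed between DeltaMxCre and AntiNRR by 5.89 on the log2 scale, tested as a difference of effects. MxCre 3 and the near absence of Cd2 counts in AntiNRR both enter that value, and Cd2 was below the filter when the antibody libraries were taken alone, so its size is no measure of a fold.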

How the results depend on the processing

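Of 836 values of members recomputed under alternatives, 756 kept their direction and side of the threshold, 20 passed it anew, 23 no longer passed and 37 changed sign, and no value with the changed sign was called. The cause was not tested.

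In DeltaMxCre over MxCre, genes called were 399, against 691 with DESeq2, 20 with the double-positive covariate, 53 with the mature covariate, 183 with only the libraries of the comparison and 138 to 427 without 1 library. The replicate block called 457 genes of 13557, and the fit without a filter 487 of 16204. Members called were 1, against 2 with DESeq2 or the replicate block, 3 without a filter, 0 with either covariate and 0 to 4 without 1 library. For AntiNRR over IgG, genes were 551, against 284 with the double-positive covariate and 257 to 470 without 1 library. They were 825 with DESeq2, 559 with DESeq2 size factors, 592 with the mature covariate and 548 with the replicate block, each of 13557 tested. Without a filter they were 597 of 16204. Members were 1, against 2 with DESeq2, DESeq2 size factors, the mature covariate or no filter, 0 with the double-positive covariate or the replicate block, and 0 to 1 without 1 library. For DeltaTamCre over TamCre, genes were 12, against 545 with DESeq2, 2 in a fit of all 20 libraries, 4 and 1 with the double-positive and mature covariates, 0 with the replicate block and 0 to 8 without 1 library; members were 0, against 2 with DESeq2 and 0 in each fit without 1 library. DESeq2 called 344, 79 and 289 genes in the differences DeltaMxCre minus AntiNRR, DeltaMxCre minus DeltaTamCre and AntiNRR minus DeltaTamCre, against 167, 23 and 97. The replicate block gave 9 and 35 in the last 2 of these. Without 1 library the differences called 99 to 290, 11 to 52 and 47 to 131 genes, and 0 to 2, 0 to 1 and 0 members; DESeq2 called 1 member in the last. The co-variation relations that passed were 0, against 1 with DESeq2 size factors and 1 with a prior count of 0.5.

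The replicate numbers did not pair the samples: deviations of same-numbered samples correlated at -0.357 to 0.0238, none over 0.1. Signs changed as follows, in log2 fold change. With the double-positive covariate, AntiNRR Cd6 was 0.027, AntiNRR Cd8a 0.19, DeltaMxCre Cd4 1.15 and DeltaMxCre Cd8a 0.77. DeltaMxCre Cd8a, at -0.00, was 0.0088 with DESeq2, 0.0087 with its size factors, 0.0129 without a filter, 0.0153 with only the libraries of the comparison and 0.12 with the replicate block. AntiNRR Cd69 was -0.0518 with the replicate block, and DeltaMxCre Cd8b1 -0.56 with the mature covariate.

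Leaving out 1 library gave, for DeltaMxCre, Cd4 -0.80 to 0.18, Cd8a -0.36 to 0.29 and Cd8b1 -0.0694 to 0.90. For AntiNRR it gave Cd5 -0.60 to 0.0566, Cd8a -0.47 to 0.37 and Cd69 -0.56 to 1.16, and for DeltaTamCre Cd2 -0.0825 to 0.34 and Cd69 -0.28 to 0.15. In the difference DeltaMxCre minus AntiNRR it gave Cd8a -0.37 to 0.47, Cd8b1 -0.74 to 0.23 and Cd69 -2.39 to 0.0061. DeltaMxCre minus DeltaTamCre had Cd8b1 -0.75 to 0.26. AntiNRR minus DeltaTamCre had Cd4 -1.21 to 0.0757, Cd8b1 -0.38 to 0.37, Cd28 -0.21 to 0.0146 and Cd69 -0.47 to 1.26. Cd2 could not be tested for AntiNRR with only the libraries of the comparison, where it was below the filter. Its counts of 0 to 12 in the antibody libraries, and 35 to 256 for the co-receptor genes in SMARTer libraries, limit what those groups can show.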
